A study of Mus musculus with 9 samples.

Results

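The carbonic anhydrase family is described here by 10 genes of the 46517 genes listed in each library, taken by their symbols from a list drawn up with earlier results of these data known: Car2, Car3, Car7 and Car13 (cytosolic), Car5b (mitochondrial), Car4, Car9 and Car12 (cell surface), and Car8 and Car11 (related proteins without enzyme activity). Carbonic anhydrases interconvert carbon dioxide and water with bicarbonate and a proton, and so set the supply of acid and base equivalents inside and around a cell. In the duodenum they serve the bicarbonate secretion that neutralises gastric acid, working beside bicarbonate exchangers, cotransporters and proton exchangers. The isoforms differ mainly in where they sit: in the cytosol, in mitochondria, on the cell surface or in secretions, while a few related proteins have lost the catalytic site.

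Bulk RNA sequencing was performed on 9 duodenal organoid cultures from wild-type C57BL/6J mice, kept at 5% oxygen in medium rich in Wnt ligand and R-spondin, and harvested about 72 hours after transduction with adenovirus at 50 particles per cell. Ad-GFP (3 samples, replicates 1, 3 and 4) carried green fluorescent protein and served as control for the virus, which all 3 groups share. Ad-hHIF2 (3 samples) carried human HIF2 and Ad-hHIF1 (3 samples) human HIF1, the oxygen-regulated transcription factors, each with its hydroxylated prolines replaced so that the protein is not degraded. Expression was transient, the share of transduced cells in each culture was not measured here, and the labels give neither the ages of the mice nor whether each replicate came from a mouse of its own, so the p-values measure the spread between these cultures. The comparison asks how each HIF alters the transcriptome of organoids, and here what happened to carbonic anhydrase transcripts.

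Libraries held 21722618 to 51119041 expected counts, and the 10 members together took 0.00241% to 0.00443% of them. Mouse Epas1, which encodes HIF2α, averaged 1.77 ± 0.382 CPM in the Ad-GFP samples and 672 ± 78.1 in those with Ad-hHIF2 (SD, n = 3), where CPM is the count scaled to a common library total after TMM normalisation. Mouse Hif1a was at 220 ± 28.0 CPM in Ad-GFP and 309 ± 9.96 in Ad-hHIF1, with no overlap between samples, and its difference did not pass (log2 fold change 0.49 ± 0.104 SE, edgeR, Benjamini-Hochberg adjusted p = 0.486), nor without replicate 3 of Ad-hHIF1 (0.47, adjusted p = 0.664). How far reads of the human transgenes enter these mouse genes was not tested. The authors report that they checked HIF overexpression from the viruses by western blot and qRT-PCR. The Ad-hHIF1 replicate 3 library stood apart, with 16.0% of its counts in Gm10800 and Gm26870 against 0.433% to 4.28% in the other 8 libraries. Several of the values that use it, but not all, are also given without it. All 8 epithelial markers averaged above 1 CPM in each group, as did all 4 duodenal transcription factors. The epithelial markers summed to 3222 to 3738 CPM per sample, mostly Krt8, Krt18 and Krt19. Others of them were low over all samples, with Epcam at 1.42 to 3.80, Vil1 at 3.27 to 4.94 and Cldn7 at 1.31 to 2.32 CPM. No stem cell marker of 5 (Lgr5, Olfm4, Ascl2, Smoc2, Axin2) averaged above 1 CPM in any group, and Olfm4 was at 0 in 8 of 9 samples.

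The members ranged widely in level in the control organoids. In CPM per kilobase of effective transcript length, a scale on which genes can be compared, Car2 stood highest at 4.49 ± 0.998 (SD, n = 3) in Ad-GFP, followed by Car5b at 2.53 ± 0.384. Every Ad-GFP sample of Car2 was above every sample of Car5b, and every Car5b sample was above those of Car13 (1.59 ± 0.0990), Car8 (1.48 ± 0.167) and Car12 (1.33 ± 0.220). The levels of Car13, Car8, Car12 and Car9 (1.31 ± 0.993) overlapped among samples and were not separable, and 1 Car9 sample reached into the range of Car5b. Car11 (0.204 ± 0.304) and Car7 (0.102 ± 0.0881) lay below these and overlapped each other. For scale, the median over the 26425 genes with a count in Ad-GFP was 0.509 CPM per kilobase, and 71.9% of those genes lay below Car2. Car2, Car5b, Car13, Car8, Car12 and Car9 were above that median, Car11 and Car7 below it, and Car3 and Car4 had no count in Ad-GFP.

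The upstream sequences of 3 expressed members are shown here for reference: Car9, a textbook HIF target, Car12, another transmembrane enzyme, and the mitochondrial Car5b. Each is the 250 bases before an annotated RefSeq transcription start (GRCm38.p6), written 5′ to 3′ on the gene's strand, and capitals mark the core hypoxia response motif, ACGTG on either strand (written CACGT where it lies on the other strand). The positions are chr4:43506776-43507025 (plus strand) for Car9, chrX:164028011-164028260 (minus strand) for Car5b and chr9:66713436-66713685 (plus strand) for Car12.
Car9: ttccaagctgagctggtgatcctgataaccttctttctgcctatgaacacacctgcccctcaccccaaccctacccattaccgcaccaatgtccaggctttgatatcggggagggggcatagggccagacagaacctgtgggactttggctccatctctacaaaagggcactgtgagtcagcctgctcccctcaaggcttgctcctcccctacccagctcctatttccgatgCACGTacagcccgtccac
Car5b: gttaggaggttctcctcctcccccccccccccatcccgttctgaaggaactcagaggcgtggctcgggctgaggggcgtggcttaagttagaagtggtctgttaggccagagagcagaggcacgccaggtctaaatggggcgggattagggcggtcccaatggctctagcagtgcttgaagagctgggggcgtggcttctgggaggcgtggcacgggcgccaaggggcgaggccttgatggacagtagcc
Car12: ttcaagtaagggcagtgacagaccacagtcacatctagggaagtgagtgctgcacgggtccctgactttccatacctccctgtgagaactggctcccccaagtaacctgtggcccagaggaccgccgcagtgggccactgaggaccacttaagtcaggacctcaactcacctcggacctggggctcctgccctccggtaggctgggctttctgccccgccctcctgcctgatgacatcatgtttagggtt
The Car9 window held 1 match, on the other strand, with its first base 18 bases before the start and not within the longer palindrome CACGTG. The windows of Car5b and Car12 held none. RefSeq windows were at hand for 6 of the 10 members (Car4, Car5b, Car7, Car9, Car11 and Car12), and for Car2, Car3, Car8 and Car13 there was none. Of the 9 windows, that of Car9 was the only 1 with the motif, beside 16.6% of the 32851 windows of all genes. A match is a stretch of letters and was not tested for binding.

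With Ad-hHIF2, 2 of the 10 members passed the test, in opposite directions: Car8 rose and Car2 fell in counts, each by just under 2-fold. Of the 10 members, 7 had enough counts to be tested against Ad-GFP (Car3, Car4 and Car7 did not). By edgeR's quasi-likelihood test at a Benjamini-Hochberg adjusted p below 0.05, 1 member was higher and 1 lower, where 15.9% of all 14987 genes tested were higher and 13.6% lower. No member was both called and changed at least 2-fold, where 6.73% of all genes met both conditions. Car8, close to that bound, met both in edgeR with total counts and without Ad-GFP replicate 4 or Ad-hHIF2 replicate 4, at 1.21, 1.02 and 1.02 on the log2 scale. Car2 met both without Ad-GFP replicate 1, at -1.05. Of the 7 members, 4 had an unadjusted p below 0.05, against 41.2% of all genes. In CPM the samples of the groups did not overlap in 4 of the 7 members (2 above, 2 below), against 45.8% of all genes. The median log2 fold change over the 7 tested members was 0.14, and over all genes tested -0.01. When libraries were scaled by total counts alone, the median over all genes was 0.24 and the share of calls that were higher was 80.8% (53.9% with TMM), and both members kept their call and direction while Car5b was also called.

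**Figure D1:**
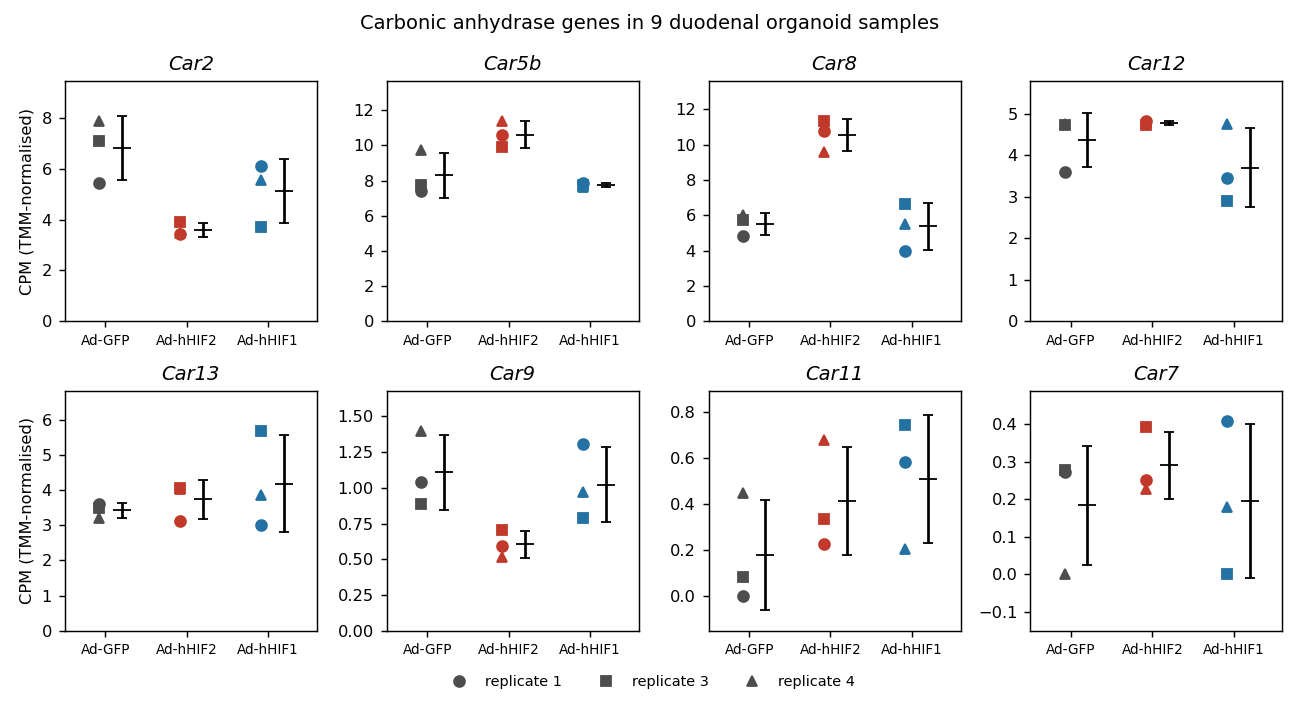
CPM after TMM normalisation (vertical axes, linear, each gene with its own scale) of the 8 members with more than 2 counts in a sample, in Ad-GFP, Ad-hHIF2 and Ad-hHIF1. Points are the 3 samples of a group, by replicate number, and the dash with bars is the mean ± SD. The Ad-hHIF2 points of Car8 and Car5b lie above, and those of Car2 and Car9 below, all Ad-GFP points.

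Car2, the abundant cytosolic enzyme of many secretory epithelia (ENSMUSG00000027562), was at 5.44, 7.12 and 7.90 CPM in Ad-GFP replicates 1, 3 and 4. In Ad-hHIF2 it was at 3.43, 3.92 and 3.46 CPM, and in Ad-hHIF1 at 6.11, 3.72 and 5.57 CPM. All Ad-hHIF2 samples lay below all Ad-GFP samples, whereas the Ad-hHIF1 samples spread over both. Car2 fell by 0.90 on the log2 scale in Ad-hHIF2 (SE 0.174, 95% interval -1.30 to -0.51, edgeR, Benjamini-Hochberg adjusted p = 0.00554), which is 1.87-fold lower. Leaving out any of the 6 libraries kept the call, with log2 fold changes from -1.05 to -0.78. The fall was seen in counts but not in the deposited TPM (abundance scaled by transcript length and to a fixed total per library), which were 0.40, 0.60 and 0.63 in Ad-GFP and 0.61, 0.41 and 0.37 in Ad-hHIF2 and overlapped. There limma gave -0.08 on the log2(TPM + 1) scale (adjusted p = 0.675) and -0.20 on the log2(TPM + 0.1) scale (adjusted p = 0.682), with no call. The TPM are not TMM-normalised, and over all genes tested their median log2 difference was 0.12 and 0.30 on these scales. In Ad-hHIF2 replicate 1 the TPM of most expressed members was above that of replicates 3 and 4 (Car5b 0.80 against 0.40 and 0.48). On the TMM scale per kilobase, Car2 lay at 3.39 to 5.33 in Ad-GFP and 2.47 to 3.01 in Ad-hHIF2, without overlap. The effective length estimated for Car2 was 1481 to 1606 bases in Ad-GFP and 1304 to 1390 bases in Ad-hHIF2, and its part in the result was not tested.

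Car13, another cytosolic enzyme, was at 3.61, 3.49 and 3.20 CPM in Ad-GFP, 3.11, 4.06 and 4.04 in Ad-hHIF2 and 3.00, 5.69 and 3.86 in Ad-hHIF1. Its groups overlapped, and its difference in Ad-hHIF2 did not pass (log2 fold change 0.12, SE 0.186, 95% interval -0.30 to 0.55, edgeR adjusted p = 0.655). Car7, a cytosolic isoform best known from neurons, had 10, 10 and 0 counts in Ad-GFP, 11, 20 and 7 in Ad-hHIF2 and 14, 0 and 7 in Ad-hHIF1. These counts were too low for the test against Ad-GFP. Car3, the isoform of muscle and fat, had 1 count in each of 2 Ad-hHIF1 samples and 0 elsewhere, and no fold is given. Car13, Car3 and Car2 lie on the plus strand of chromosome 3 with Car1 between Car13 and Car3, within 259 kb (chr3:14641727-14900770, GRCm38, GENCODE M21). Along these neighbours, Car2 was called in Ad-hHIF2, Car13 was not, and Car3 and Car1 were at or near 0.

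Car5b, the mitochondrial enzyme that supplies bicarbonate to biosynthesis (ENSMUSG00000031373, chromosome X), was at 7.38, 7.76 and 9.75 CPM in Ad-GFP. In Ad-hHIF2 it was at 10.6, 9.89 and 11.4 CPM, and in Ad-hHIF1 at 7.88, 7.75 and 7.62 CPM. The Ad-hHIF2 samples all lay above the Ad-GFP samples, by a narrow gap set by Ad-GFP replicate 4. The difference of 0.37 on the log2 scale (SE 0.131, 95% interval 0.07 to 0.67) did not pass (edgeR, adjusted p = 0.0652). Without Ad-GFP replicate 4, the shallowest library, it was 0.50 and passed (edgeR, adjusted p = 0.0101). It also passed in edgeR with no filter on low counts (0.40, adjusted p = 0.0256) and with total counts as the scaling (0.62, adjusted p = 0.0129). With the replicate number as a block it passed too (0.37, edgeR, adjusted p = 0.0436), though the numbers were not taken to pair the samples. These passes were 1 of the 6 fits that left out a library and 3 of the 11 other alternatives. It did not pass in edgeR with median-ratio scaling (adjusted p = 0.0693), in DESeq2 (adjusted p = 0.0764) or in any limma fit on TPM. With total counts the median over all genes was itself 0.24. The expected counts of Car5b were not whole numbers in any of the 9 libraries, so part of its reads was shared with other transcripts, which were not identified here.

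Car9, the transmembrane enzyme with an extracellular catalytic site and a widely used marker of hypoxia (ENSMUSG00000028463), was scarce, at 16 to 45 counts per sample. It was at 1.04, 0.887 and 1.40 CPM in Ad-GFP, 0.594, 0.706 and 0.517 in Ad-hHIF2 and 1.31, 0.788 and 0.972 in Ad-hHIF1. In CPM all Ad-hHIF2 samples were below all Ad-GFP samples, but the difference did not pass (log2 fold change -0.84, SE 0.363, 95% interval -1.66 to -0.01, edgeR adjusted p = 0.116). The gene overlaps an antisense gene, Gm12454, at 1.45 ± 0.358 CPM in Ad-GFP and 1.25 ± 0.339 in Ad-hHIF2 (SD, n = 3), and reads of both cannot be told apart where the library does not mark strand, which is not given in the sources used here. The weighted transcript length of Car9 ran from 707 to 1816 bases across samples, which enters its level per kilobase. On that scale Car9 was at 0.620, 0.857 and 2.45 in Ad-GFP and 0.866, 1.08 and 0.315 in Ad-hHIF2, and the groups overlapped. The deposited TPM overlapped too, and limma gave -0.03 on log2(TPM + 1) (adjusted p = 0.911) and -0.12 on log2(TPM + 0.1) (adjusted p = 0.870).

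Car12, a second transmembrane enzyme with an extracellular site, was at 3.61, 4.74 and 4.75 CPM in Ad-GFP, 4.82, 4.73 and 4.79 in Ad-hHIF2 and 3.46, 2.89 and 4.76 in Ad-hHIF1. Its Ad-hHIF2 samples lay close together within and just above the upper Ad-GFP values (log2 fold change 0.14, SE 0.162, 95% interval -0.23 to 0.51, edgeR adjusted p = 0.552). Car4, the lipid-anchored surface enzyme, had 2 counts in Ad-hHIF2 replicate 1 and 0 in the other 8 libraries. At these depths 3 counts correspond to 0.0589 to 0.150 CPM, and the counts of Car3 and Car4 were under that floor in every library.

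Car8, an acatalytic relative that binds the inositol trisphosphate receptor (ENSMUSG00000041261, chromosome 4, minus strand), had the smallest adjusted p of the members. It was at 4.81, 5.74 and 6.00 CPM in Ad-GFP and at 10.8, 11.3 and 9.57 CPM in Ad-hHIF2. In Ad-hHIF1 it was at 3.99, 6.61 and 5.52 CPM. Every Ad-hHIF2 sample was above every sample of the other groups. Car8 rose by 0.95 on the log2 scale in Ad-hHIF2 against Ad-GFP (SE 0.128, 95% interval 0.66 to 1.24, edgeR, Benjamini-Hochberg adjusted p = 0.000923), or 1.93-fold. Leaving out any library kept the call, with values from 0.86 to 1.02, and total counts gave 1.21 (edgeR, adjusted p = 4.12e-07). The deposited TPM was 0.15, 0.20 and 0.19 in Ad-GFP and 0.72, 0.41 and 0.36 in Ad-hHIF2, without overlap, on a scale where all genes together lay higher in Ad-hHIF2, as given for Car2. On log2(TPM + 1) limma gave 0.34 with no call (adjusted p = 0.304), and on log2(TPM + 0.1) 1.05 with no call (adjusted p = 0.0649). With a mean-variance trend, an alternative added after seeing the data, limma called Car8 on both scales (adjusted p = 0.0237 and 0.0241) and Car2 on neither. Car11, the other acatalytic member, had 0, 3 and 9 counts in Ad-GFP, 10, 17 and 21 in Ad-hHIF2 and 20, 17 and 8 in Ad-hHIF1. Its counts in Ad-hHIF2 were above those of Ad-GFP, but relative to depth the samples overlapped (log2 fold change 1.43, SE 1.01, edgeR adjusted p = 0.321), and leaving out a library moved the value between 0.73 and 3.21 without a call.

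**Figure D2:**
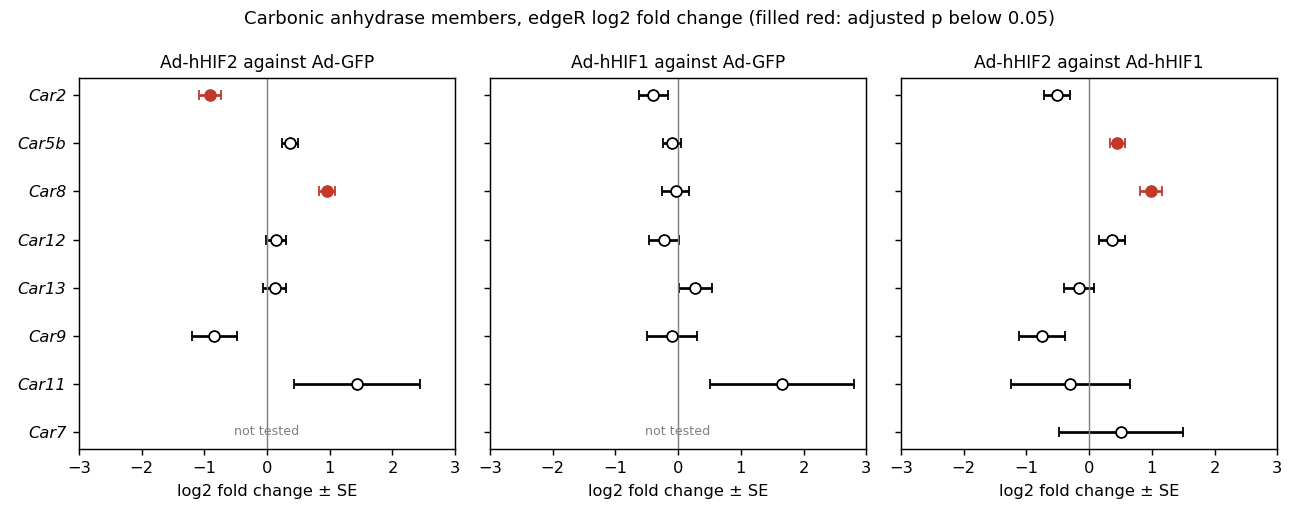
Log2 fold change ± SE (horizontal axes) of each member in Ad-hHIF2 against Ad-GFP, Ad-hHIF1 against Ad-GFP and Ad-hHIF2 against Ad-hHIF1, from edgeR. Filled red points have a Benjamini-Hochberg adjusted p below 0.05 over all genes tested. In the left panel these are Car2 at -0.90 and Car8 at 0.95, and in the middle panel there are none.

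Other transcripts moved with Ad-hHIF2 too, and their part in the results for Car2 and Car8 was not tested. In bulk RNA, fewer cells of a type and less RNA per cell cannot be told apart. The 4 duodenal factors summed to 118 to 134 CPM in Ad-GFP, 184 to 200 in Ad-hHIF2 and 128 to 137 in Ad-hHIF1. The 8 enterocyte markers summed to 1.30 to 3.06 CPM in Ad-GFP, 4.85 to 5.47 in Ad-hHIF2 and 2.58 to 3.24 in Ad-hHIF1. Most of that difference was Apoa4, at 0 to 0.0277 CPM in Ad-GFP and 2.22 to 2.81 in Ad-hHIF2, while Sis was at 0 in Ad-GFP and Fabp1 at 0 in both HIF groups. Fabp2 went the other way, at 0.519, 0.637 and 0.350 CPM in Ad-GFP and 0.137, 0.275 and 0.0323 in Ad-hHIF2. The 5 goblet markers summed to 6.01 to 9.30 CPM in Ad-GFP, 2.68 to 2.81 in Ad-hHIF2 and 4.36 to 6.13 in Ad-hHIF1, mostly Muc2, with Tff3 at 0 in Ad-GFP and Ad-hHIF2. The remaining lists were low: the 5 stem cell markers summed to at most 2.01 CPM in any sample, Paneth 0.465, enteroendocrine 0.219, tuft 2.85 and endothelial 2.98. Summed immune markers lay at 9.98 to 17.2 CPM and mesenchymal markers at 9.81 to 19.8 over all samples, and erythroid markers reached at most 2.58 CPM.

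In organoids with Ad-hHIF1, no carbonic anhydrase passed the test against Ad-GFP. Of 7 members tested, 0 were called by edgeR or by limma on TPM, DESeq2 gave no adjusted p for any of them, 0 had an unadjusted p below 0.05 in edgeR, and all 7 overlapped between groups. Across the 15233 genes tested, edgeR called 0% (1308, or 8.59%, had an unadjusted p below 0.05, and DESeq2 called 144 genes), and 17.4% did not overlap. Log2 fold changes ran from -0.40 for Car2 (95% interval -0.93 to 0.13) to 1.66 for Car11, where the interval reached from -0.99 to 4.31. For Car8 the interval was -0.54 to 0.46 and for Car5b -0.43 to 0.24, so changes of that size in either direction were within the error. Without Ad-hHIF1 replicate 3 again 0 members were called, with Car2 at -0.21 and Car11 at 1.31 on the log2 scale. Leaving out each library in turn moved Car11 between 0.98 and 3.49. Both comparisons with Ad-GFP share the same 3 control samples.

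Set directly against each other, the HIF groups differed in Car8 and Car5b. In the fit of all 9 samples 8 members were tested, of which 2 were higher in Ad-hHIF2 than in Ad-hHIF1 and 0 lower, where 13.7% of the 15556 genes tested were higher and 12% lower. Both called and at least 2-fold apart were 0 members (6.11% of all genes), and 3 of the 8 members did not overlap (41.8% of all genes). Car8 was 1.98-fold higher in Ad-hHIF2 (log2 fold change 0.98, SE 0.180, edgeR, adjusted p = 0.00282), a call that held on leaving out any of the 9 libraries and was lost in each limma fit on TPM (adjusted p = 0.0589 to 0.195). Car5b was 1.37-fold higher (log2 fold change 0.45, SE 0.123, edgeR, adjusted p = 0.0219), and all its Ad-hHIF2 samples lay above all its Ad-hHIF1 samples. Without Ad-hHIF1 replicate 3 Car5b passed narrowly (0.44, edgeR, adjusted p = 0.0495). The call for Car5b was lost on leaving out Ad-hHIF2 replicate 1 (adjusted p = 0.0622) or 4 (adjusted p = 0.0771), or Ad-hHIF1 replicate 1 (adjusted p = 0.0603) or 4 (adjusted p = 0.0534), each with 0.41 to 0.46 on the log2 scale in edgeR.

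For Car2 the difference between the HIF groups did not pass (log2 fold change -0.52, SE 0.210, edgeR, adjusted p = 0.101, unadjusted p = 0.0338). Without Ad-hHIF1 replicate 3, whose Car2 level of 3.72 CPM lay among the Ad-hHIF2 samples, it was -0.71 and passed (edgeR, adjusted p = 0.0183). The fall of Car2 in Ad-hHIF2 was thus called against Ad-GFP, while its difference from Ad-hHIF1 depended on that library. In CPM Car9 again lay lower in all Ad-hHIF2 samples without passing (log2 fold change -0.75, SE 0.370, edgeR, adjusted p = 0.169), nor did it pass without Ad-hHIF1 replicate 3 (-0.91, edgeR, adjusted p = 0.128). Per kilobase its samples overlapped, at 0.315 to 1.08 in Ad-hHIF2 and 0.847 to 1.51 in Ad-hHIF1. The other 4 members tested, Car7, Car11, Car12 and Car13, had values of 0.51, -0.30, 0.36 and -0.15 on the log2 scale, and none passed. Without Ad-hHIF1 replicate 3 these were -0.0022, 0.050, 0.20 and 0.11, and again none passed.

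The summed level of the 10 members depended on the scale. In CPM they summed to 29.9 ± 3.65 in Ad-GFP, 34.6 ± 0.768 in Ad-hHIF2 and 27.9 ± 1.01 in Ad-hHIF1 (SD, n = 3), and every Ad-hHIF2 sample (33.8 to 35.4) was above every sample of the other groups (26.2 to 33.4 and 26.8 to 28.7). The groups overlapped on the scale per length. Per kilobase, the members summed to 13.0 ± 2.75 CPM in Ad-GFP, 13.2 ± 0.613 in Ad-hHIF2 and 12.7 ± 0.338 in Ad-hHIF1 (SD, n = 3). The sum also depends on which genes enter it. With Car6, a secreted carbonic anhydrase outside the 10, it was 28.4 ± 6.89 in Ad-GFP, 16.0 ± 0.920 in Ad-hHIF2 and 32.4 ± 3.62 in Ad-hHIF1 per kilobase, with all Ad-hHIF2 samples (15.0 to 16.7) below those of Ad-GFP (23.0 to 36.1), whereas in CPM the sums with Car6 overlapped between Ad-GFP (38.1 to 52.0) and Ad-hHIF2 (36.5 to 38.5). The shares of Car2, Car8 and Car5b in the sum of the 10 members per kilobase did not overlap between Ad-GFP and Ad-hHIF2. Car2 made up 34.4% ± 2.71 of this sum in Ad-GFP, 20.4% ± 1.15 in Ad-hHIF2 and 28.8% ± 9.76 in Ad-hHIF1, where replicate 3 was at 17.8% and the other samples at 31.8% and 36.6%. Car8 made up 11.6% ± 1.25, 21.5% ± 1.71 and 11.4% ± 2.61, respectively, and Car5b 19.6% ± 1.66, 24.4% ± 2.51 and 18.6% ± 0.810. Ad-hHIF1 samples other than replicate 3 were at 8.72% and 11.5% for Car8 and at 19.5% and 17.9% for Car5b. The shares of Car2 in single samples ran from 32.3% to 37.4% in Ad-GFP and from 19.5% to 21.7% in Ad-hHIF2, and those of Car8 from 10.1% to 12.3% and from 19.6% to 22.9%. The order of levels per kilobase in Ad-hHIF2 was Car5b (3.23 ± 0.232), Car8 (2.84 ± 0.244) and Car2 (2.70 ± 0.278), and neighbouring samples of these 3 genes overlapped. In Ad-hHIF1 the means began with Car2 (3.65 ± 1.24) and Car5b (2.36 ± 0.0426), and the samples of these genes overlapped. Without replicate 3, Car2 was at 3.92 and 4.74 and Car5b at 2.40 and 2.32, whereas in replicate 3 the order was Car13 (2.67), Car5b (2.37) and Car2 (2.30). Shares of a sum are not independent of each other, and they are given as a description, with no test.

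**Figure D3:**
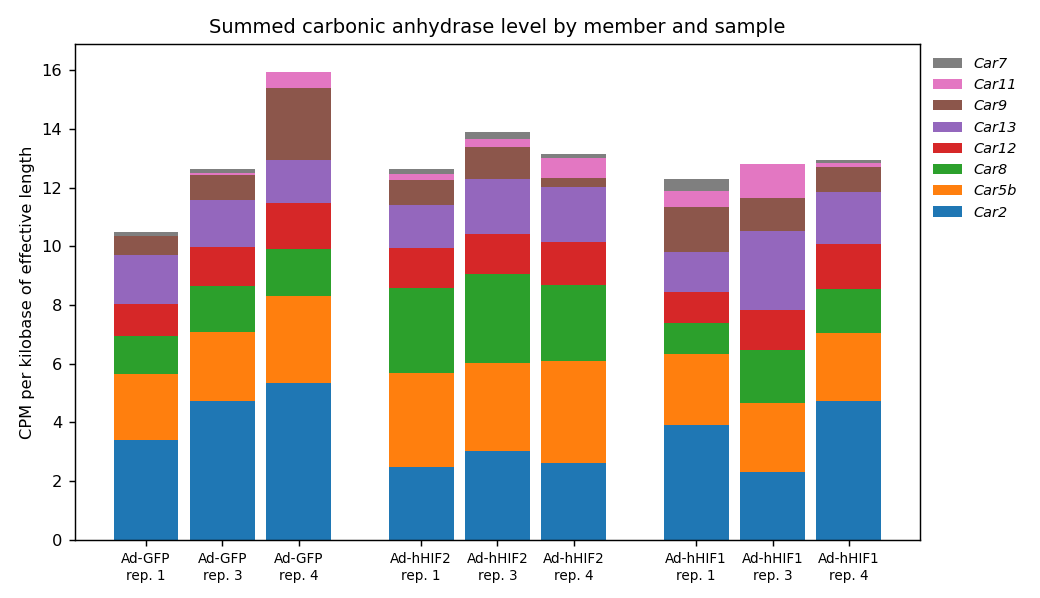
Summed CPM per kilobase of effective length (vertical axis, linear from 0) of the members, stacked by gene, in each of the 9 samples. Car3 and Car4, at most 0.0686 CPM per kilobase, are not drawn. The Car2 segment (blue) is smaller and the Car8 segment (green) larger in all 3 Ad-hHIF2 bars than in the Ad-GFP bars.

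Other carbonic anhydrase genes and the transporters that work with them were counted from lists. Of the other 6 mouse genes (Car1, Car5a, Car6, Car10, Car14, Car15), 2 were tested, Car6 and Car15. Car6, the secreted isoform known from saliva, was at 12.0, 13.1 and 18.5 CPM in Ad-GFP, 3.36, 3.10 and 1.88 in Ad-hHIF2 and 16.5, 19.3 and 18.5 in Ad-hHIF1. It was thus more abundant per kilobase in Ad-GFP (15.3 ± 4.22) than any of the 10 members, and in Ad-hHIF2 all its samples lay below those of both other groups. Car6 fell by 2.35 on the log2 scale against Ad-GFP (SE 0.236, edgeR, adjusted p = 0.000192), which is 5.11-fold lower, and by 2.68 against Ad-hHIF1 (edgeR, adjusted p = 1.52e-05), with a log2 fold change of -2.65 without Ad-hHIF1 replicate 3 (edgeR, adjusted p = 4.23e-05). Its difference in Ad-hHIF1 against Ad-GFP was 0.32 and did not pass (edgeR, adjusted p = 0.618), nor without that library (0.28, edgeR, adjusted p = 0.754). Car15, a lipid-anchored isoform, differed by 0.81 in Ad-hHIF2 without passing (edgeR, adjusted p = 0.232).

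Of 22 genes of proton, bicarbonate and lactate transport, 12 were tested in Ad-hHIF2 against Ad-GFP, and 2 were higher and 5 lower, where 15.9% of all genes tested were higher and 13.6% lower. Slc4a4, the sodium bicarbonate cotransporter that brings base into the duodenal cell, rose from 70.7 ± 1.83 to 196 ± 10.7 CPM (SD, n = 3, log2 fold change 1.48, SE 0.0769, edgeR, adjusted p = 4.82e-06). Slc4a11 (-0.82, edgeR, adjusted p = 0.0235) and the anion exchanger gene Slc4a3 (-0.79, edgeR, adjusted p = 0.0177) fell. With total counts as the scaling 2 were higher and 1 lower, where 23.3% of all genes were higher and 5.52% lower. Slc4a11 (-0.54, adjusted p = 0.134) and Slc4a3 (-0.55, adjusted p = 0.144) did not pass in edgeR, and the list's median moved from -0.14 to 0.11. In Ad-hHIF1 against Ad-GFP 0 of 13 tested passed in edgeR, and 3 had an unadjusted p below 0.05, beside 8.59% of all genes. Without Ad-hHIF1 replicate 3, 0 of 14 tested passed, and 4 had an unadjusted p below 0.05, beside 7.17% of all genes.

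Of 18 textbook HIF targets, all were tested, and in Ad-hHIF2 against Ad-GFP 6 were higher and 7 lower, beside the same 15.9% and 13.6% of all genes. The largest called changes were Ankrd37 (2.32, edgeR, adjusted p = 3.66e-05), Egln3, which encodes a HIF prolyl hydroxylase (1.45, edgeR, adjusted p = 5.09e-06), and Higd1a (-1.38, edgeR, adjusted p = 1.19e-05). With total counts 7 were higher and 4 lower, where 23.3% of all genes were higher and 5.52% lower, and the list's median moved from -0.15 to 0.10. In Ad-hHIF1 against Ad-GFP 0 of the 18 passed in edgeR, and 6 had an unadjusted p below 0.05, beside 8.59% of all genes. Without Ad-hHIF1 replicate 3 these counts were 0 and 7, beside 7.17% of all genes.

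**Figure D4:**
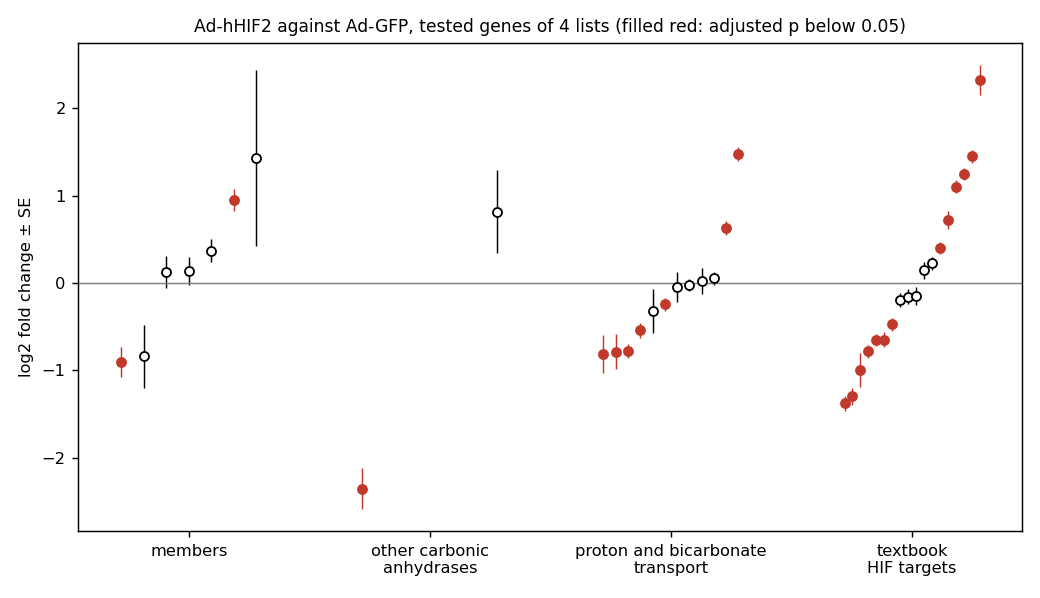
Log2 fold change ± SE (vertical axis) in Ad-hHIF2 against Ad-GFP of the tested genes among the 10 members, the other carbonic anhydrases, the proton and bicarbonate transport genes and the textbook HIF targets, each ordered by value. Filled red points have an adjusted p below 0.05 in edgeR. Car6, at -2.35, is the lowest point and Ankrd37, at 2.32, the highest.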

How the data were processed

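RNA was sequenced from 9 organoid cultures in 3 groups of 3, named in the labels. Reads of low quality were discarded by the authors, who estimated abundance with RSEM (version, aligner, genome build, annotation and strandedness are not given in the sources used here). The deposited expected counts are estimates per gene, not normalised. The deposited TPM values are the authors' length-scaled abundances, used only in alternatives. Expected counts were rounded, filtered with filterByExpr and TMM-normalised. Groups were compared by edgeR 4.0.16 quasi-likelihood tests (R 4.3.3) with Benjamini-Hochberg adjustment over all genes tested, called at an adjusted p below 0.05. The tests of either HIF against Ad-GFP used the 6 samples concerned, and that between the HIF groups all 9. The authors' own comparison was made with EBSeq and was not used here. The procedure was tested on simulated data, with the same spread in all 3 comparisons and changes of at least 2-fold in well-counted genes only. It was thus not tested for scarce members or for smaller changes. Total counts were 21722618 to 51119041 per sample, and 3 against 3 samples cannot give a two-sided exact permutation p below 0.10. Intervals are 95%, from the t distribution of the fit.

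Gene positions are those of GENCODE M21 (GRCm38), which matched 46005 of the genes, and promoter windows are from RefSeq. The members, the lists and the markers were chosen with earlier results of these data known. Named were every member, every tested gene of the other carbonic anhydrases, and the 3 largest called changes of the transport and HIF target lists. Marker lists covered epithelium, duodenum, stem cell, enterocyte, goblet, Paneth, enteroendocrine, tuft, immune, mesenchyme, endothelium and erythroid cells. The level of 1 marker gene is not reported here. Alternatives were another filter or none, median-ratio and total-count scaling, DESeq2 1.42.0, limma 3.58.1 on log2(TPM + 1) and log2(TPM + 0.1), a 2-fold threshold, other samples in the fit, the replicate number as a block and each sample left out. The limma fits were also run with a mean-variance trend, an alternative added after seeing the counts without it.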

Additional observations from a re-analysis of the deposited data

How the results depend on the processing

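In Ad-hHIF2 against Ad-GFP, the 7 members tested kept their direction under each alternative that tested them (Car11 had too few counts for the filter of 10 counts in every sample). There, members higher numbered 2 with no count filter, with total counts only and with the replicate block (the added one was Car5b in each), 0 at 2-fold, and 0 with limma on log2(TPM + 1) or log2(TPM + 0.1). Members lower numbered 0 at 2-fold and with limma on either scale, with or without the mean-variance trend. All genes called were 4416 in the fit reported, 1009 at 2-fold, 3 and 425 with limma on the 2 TPM scales, and 997 and 1094 with the trend. Leaving out each replicate gave 1 to 2 members higher, 1 lower and 3074 to 4539 genes. For Ad-hHIF1 against Ad-GFP, all genes called rose from 0 to 384 with no filter, 144 with DESeq2, 7 in the fit of all 9 samples and 2 with limma on log2(TPM + 1), and 0 members were called in the fits that gave them an adjusted p. DESeq2 gave none to the 7 members there, so it says nothing of them. For Ad-hHIF2 against Ad-hHIF1, members higher fell from 2 to 0 at 2-fold and in each limma fit. All genes called were 4008 in the fit reported, 951 at 2-fold, 151 and 429 with limma, and 371 and 493 with the trend. Leaving out each replicate gave 1 to 2 members higher, 0 to 1 lower and 2594 to 4335 genes. With total counts the share of higher calls there was 72.3% (53.3% with TMM).

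Signs reversed only for values that were never called. In Ad-hHIF1 against Ad-GFP, limma on log2(TPM + 1) and log2(TPM + 0.1), with or without the trend, gave Car5b 0.022 and 0.074, Car8 0.024 and 0.092, Car9 0.0082 and 0.097 and Car12 0.029 and 0.12, total counts gave Car8 0.031, and leaving out replicates gave ranges of -0.17 to 0.034 for Car5b, -0.20 to 0.14 for Car8, -0.32 to 0.093 for Car9 and -4.0e-05 to 0.47 for Car13. In Ad-hHIF2 against Ad-hHIF1, Car13 was 0.023 and 0.088 with limma and 0.021 with total counts, and ranges were -0.37 to 0.11 for Car13, -0.82 to 0.050 for Car11 and -0.0022 to 1.5 for Car7. The cause was not tested. Same-numbered samples correlated at 0.0637 to 0.114, -0.0776 to 0.0831 and -0.178 to -0.0606 in the 3 comparisons, so the numbers were not taken to pair the samples. In the first, every sample correlated best with its own number, a hint from the data and not from the design. With the replicate block the genes called numbered 4631, 0 and 3638. Depth limits Car3, Car4, Car7 and Car11, with at most 21 counts in a sample.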
